A study of Mus musculus with 14 samples.

Results

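The genes described here carry pyruvate into the mitochondrion and run the tricarboxylic acid cycle. They are 35 named genes: the mitochondrial pyruvate carrier, the pyruvate dehydrogenase complex with its kinases and phosphatases, pyruvate carboxylase, the malic enzymes and the enzymes of the cycle. They were chosen by function, and 34 of them had a probe set among the 18193 genes measured. Mpc2, a subunit of the pyruvate carrier, had no probe set annotated to it alone and was not analysed here. Where a gene had several probe sets, the one with the highest mean over all arrays stood for it.

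The samples were 14 Affymetrix mouse arrays of ribosome-bound mRNA pulled from ventral midbrain by the RiboTag method, in which an epitope-tagged ribosomal protein marks the ribosomes of a chosen cell type. Tfr1-null mice lacked transferrin receptor 1, through which neurons take up iron carried by transferrin, in dopaminergic neurons, and gave 4 libraries at 3 weeks and 3 at 10 weeks. Control mice were heterozygous for the Tfr1 allele, so they too carried an altered copy, and gave 3 libraries at 3 weeks and 4 at 10 weeks. All mice carried the RiboTag background and were F2 animals of 129Sv and C57BL/6. The promoter that drove the deletion was not named in the sources used. Whether replicates came from separate mice is not stated, so p-values measure only the spread between these samples, which may in part be technical. In pulled-down RNA, fewer tagged cells and less RNA per cell cannot be told apart.

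Pyruvate, the end product of glycolysis, enters mitochondria through the pyruvate carrier, and the pyruvate dehydrogenase complex turns it into acetyl-CoA. Pyruvate dehydrogenase kinases switch the complex off by phosphorylating it, and phosphatases switch it back on. The cycle then oxidizes the acetyl group and passes electrons to the respiratory chain, partly through succinate dehydrogenase, whose iron-sulfur clusters and heme tie it to iron supply.

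The labels of 2 libraries were in doubt. The control probe set for the middle of the Tfrc transcript, which encodes Tfr1, read 10.88, 10.70 and 10.98 log2 units in Tfr1-null libraries 2 to 4 at 3 weeks, against 8.81, 8.80 and 8.86 in the 3 controls. The probe set for the 5′ end read 7.13, 7.73 and 6.88 in the same Tfr1-null libraries, against 9.59, 9.50 and 9.56 in controls. The library titled Tfr1-null 1 at 3 weeks read 8.82 at the middle and 9.67 at the 5′ end, on the control side, and its source name says control. In the older mice the 3 Tfr1-null libraries read 11.39 to 11.69 at the middle and 7.79 to 9.29 at the 5′ end, against 9.17 to 9.86 and 9.63 to 10.44 in controls 2 to 4. The library titled control 1 at 10 weeks read 11.43 and 8.55, within the Tfr1-null ranges. The sources used do not name the deleted exons, so where these probe sets lie against the deletion is not known. Apart from these 2 libraries, both separated the groups without overlap at both ages, the middle higher and the 5′ end lower in Tfr1-null. Counts of called genes and the called members are therefore given with all 14 libraries as titled and with 12 libraries, without these 2, and other values are from the 12 libraries unless stated.

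The median signal of an array was 6.41 to 6.47 log2 units for the younger mice and 7.36 to 7.43 for the older ones, so levels were compared only within an age. A male pattern of sex-linked transcripts was found in 1 of 7 libraries at 3 weeks, control 2, and in 7 of 7 at 10 weeks. Of the members, Pdha1, Pdk3 and Idh3g lie on the X chromosome, and control 2 at 3 weeks lay between or beside the other controls in each (11.67, 9.19 and 12.35 log2 units). By the probe set that stood for it, no member lay under the 25th percentile of its array in any library. All 12 dopaminergic neuron markers were above that limit too, among them Th and Slc6a3. The log2 of their summed signal ranged from 16.14 to 16.22 in Tfr1-null and from 16.28 to 16.33 in control at 3 weeks, and from 16.78 to 17.02 and from 17.10 to 17.18 at 10 weeks, in the 12 libraries. The dopamine receptor gene Drd2 fell by 0.85 (adjusted p = 0.00188), Ddc by 0.32 (adjusted p = 0.0488) and Aldh1a1 by 0.28 (adjusted p = 0.0493) at 10 weeks in limma with these 12. Slc6a3 and Th differed by -0.31 (adjusted p = 0.0520) and -0.23 (adjusted p = 0.0953), and Pitx3, a transcription factor of these neurons, by -1.86 (adjusted p = 0.111). Of the 12 markers, 3 lay higher in Tfr1-null at 10 weeks, by up to 0.19, and the median difference was -0.29. With 14 libraries 0 of the 12 dopaminergic markers were called, and Drd2 differed by -0.58 (adjusted p = 0.171). Markers of other cells were read in the same way. Of 8 microglial, 7 oligodendrocyte, 7 endothelial and pericyte and 2 glutamatergic markers, 0 were called at either age. Of 3 GABAergic markers Slc32a1 rose by 0.70 (adjusted p = 0.00710) at 10 weeks with 12 libraries and differed by 0.49 (adjusted p = 0.196) with 14. The summed log2 signal at 10 weeks ranged from 11.52 to 12.48 in Tfr1-null and from 11.06 to 11.92 in control for microglia, from 14.70 to 15.11 and from 14.62 to 15.20 for oligodendrocytes, and from 13.07 to 13.47 and from 12.73 to 13.02 for GABAergic neurons. The part of these cells in the member values was not tested.

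Promoter sequences of the 4 members that limma called are shown because these genes carry the differences reported here. Each is the first listed RefSeq promoter window of the gene on GRCm38.p6, from 250 bases before to 50 after the annotated start, on the strand of the gene. Capitals mark ACGTG and GCGTG on either strand (CACGT and CACGC on the other), the core letters bound by hypoxia-inducible factors, a family for which Pdk1 is a known target. The Pdk1 window lies at chr2:71872974-71873273 on the plus strand, that of Ogdh at chr11:6291347-6291646 on the plus strand, that of Idh1 at chr1:65186430-65186729 on the minus strand and that of Pdhx at chr2:103073464-103073763 on the minus strand.
Pdk1: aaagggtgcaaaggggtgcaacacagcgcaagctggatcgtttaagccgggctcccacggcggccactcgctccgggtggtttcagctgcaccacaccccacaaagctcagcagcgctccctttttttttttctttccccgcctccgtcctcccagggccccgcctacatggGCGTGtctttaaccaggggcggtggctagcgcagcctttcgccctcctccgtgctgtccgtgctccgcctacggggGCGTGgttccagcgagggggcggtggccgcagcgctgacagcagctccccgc
Ogdh: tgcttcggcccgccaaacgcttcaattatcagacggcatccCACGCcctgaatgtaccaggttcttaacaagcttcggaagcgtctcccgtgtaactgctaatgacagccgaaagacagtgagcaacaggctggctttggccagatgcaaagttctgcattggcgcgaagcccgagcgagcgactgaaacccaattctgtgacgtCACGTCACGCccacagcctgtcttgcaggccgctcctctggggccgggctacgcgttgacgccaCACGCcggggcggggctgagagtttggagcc
Idh1: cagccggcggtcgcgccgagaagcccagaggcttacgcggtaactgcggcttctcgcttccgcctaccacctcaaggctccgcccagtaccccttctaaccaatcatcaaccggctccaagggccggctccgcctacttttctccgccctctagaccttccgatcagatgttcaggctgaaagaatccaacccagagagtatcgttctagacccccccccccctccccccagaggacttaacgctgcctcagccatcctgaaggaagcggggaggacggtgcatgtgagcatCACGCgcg
Pdhx: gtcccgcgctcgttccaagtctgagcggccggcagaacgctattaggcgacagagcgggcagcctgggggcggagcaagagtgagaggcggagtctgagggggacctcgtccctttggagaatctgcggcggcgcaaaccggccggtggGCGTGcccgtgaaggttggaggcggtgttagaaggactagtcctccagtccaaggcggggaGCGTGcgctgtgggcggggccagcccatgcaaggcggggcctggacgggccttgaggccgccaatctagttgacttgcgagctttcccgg
The Pdk1 window held GCGTG 2 times, and that of Pdhx 2 times. The Idh1 window held GCGTG 1 time, close to its downstream end. The Ogdh window held ACGTG 1 time and GCGTG 3 times, one of them directly beside the ACGTG. Among all 32851 promoter windows of this length, 19.6% held ACGTG, 32.4% held GCGTG and 43.8% held either. Of the 30 members with a window, 9 (30.0%) held ACGTG and 17 (56.7%) held GCGTG in the first window listed. These matches describe letters only and show neither a site nor its use.

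Across the members, few genes passed the test and the middle of the list stood near 0. With the libraries as titled, limma called 0 of 34 members at 3 weeks, where 0.0% of all genes were called, and 0 of 34 at 10 weeks, where 1.21% were. At an unadjusted p under 0.05 there were 3 members at 3 weeks, beside 4.67% of all genes, and 8 at 10 weeks, beside 19.9%. With 12 libraries, 1 member was called higher at 3 weeks, Pdk1, beside 0.682% of all genes, and 0 lower, beside 1.16%. At 10 weeks 0 members were called higher, beside 4.73% of all genes, and 3 were called lower, Ogdh, Idh1 and Pdhx, beside 6.34%. At an unadjusted p under 0.05 the 12 libraries gave 7 of 34 members at 3 weeks, beside 10.6% of all genes, and 15 of 34 at 10 weeks, beside 26.4%. The share called lower at 10 weeks, 8.82% of 34, is near the background share.

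The median log2 difference of the members, Tfr1-null minus control, was 0.03 at 3 weeks and 0.002 at 10 weeks in the 12 libraries, against 0.01 and -0.01 over all genes. With 14 libraries the member medians were -0.01 and 0.01. Differences smaller than 0.25 were found for 26 of 34 members at 3 weeks and for 16 of 34 at 10 weeks, beside 78.7% and 58.7% of all genes. The 95% interval lay within 0.5 log2 units of 0 for 20 members at 3 weeks and for 16 at 10 weeks. The groups did not overlap for 16 members at 3 weeks, 8 higher and 8 lower, which is 47.1% of 34 beside 25% of all genes. At 10 weeks they did not overlap for 13 members, 5 higher and 8 lower, which is 38.2% beside 22.5%. By their representative probe sets, Pdk3 and Idh2 lay higher and Pdha1, Idh1 and Ogdh lower without overlap at both ages. In the other probe set of Idh2 the groups overlapped at both ages.

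**Figure D1:**
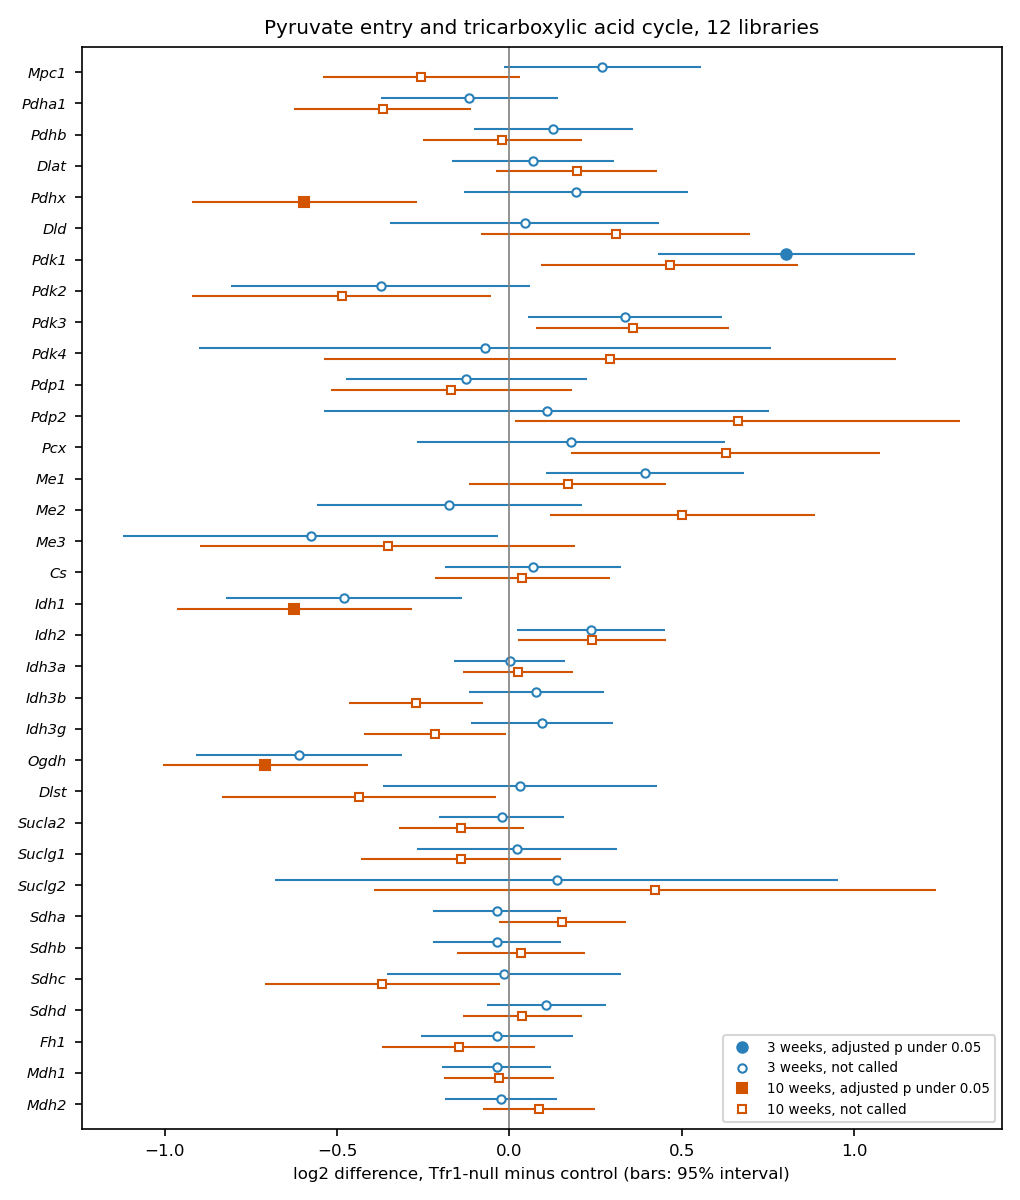
Log2 difference in signal, Tfr1-null minus control (horizontal axis), for the 34 measured members in order of role, in the 12 libraries. Circles are 3 weeks and squares 10 weeks, bars are 95% intervals from limma, and filled symbols are called (adjusted p under 0.05). Most symbols lie near 0, and the filled ones are Pdk1 at 3 weeks (0.80) and Ogdh, Idh1 and Pdhx at 10 weeks (-0.71, -0.62 and -0.60).

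At the entry of pyruvate, Mpc1, the measured subunit of the mitochondrial pyruvate carrier, read 10.58, 11.00 and 10.73 log2 units in Tfr1-null libraries 2 to 4 at 3 weeks, against 10.40, 10.51 and 10.60 in controls. The 10-week values were 11.30, 11.16 and 11.38 in Tfr1-null, against 11.37, 11.56 and 11.69 in controls 2 to 4. The library titled Tfr1-null 1 at 3 weeks read 10.55 and that titled control 1 at 10 weeks 11.70. The groups overlapped at both ages, with differences of 0.27 (SE 0.13, adjusted p = 0.527) and -0.26 (SE 0.13, adjusted p = 0.241) in limma. The change of the genotype difference between ages was -0.53 (SE 0.18, adjusted p = 0.274).

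The pyruvate dehydrogenase complex holds 5 of the members: Pdha1 and Pdhb encode its pyruvate-decarboxylating subunits, Dlat its acetyltransferase core, Dld its dihydrolipoyl dehydrogenase and Pdhx the protein that anchors Dld to the core. Only Pdhx passed the test. It read 8.62, 9.14 and 9.10 log2 units in Tfr1-null at 10 weeks, against 9.46, 9.63 and 9.56 in controls 2 to 4 and 9.49 in the library titled control 1. All 3 Tfr1-null libraries lay below controls 2 to 4. The library titled control 1, whose label was in doubt, lay among those controls and not with Tfr1-null. Pdhx fell by 0.60 (SE 0.15, 95% interval -0.92 to -0.27, adjusted p = 0.0276) with 12 libraries. With 14 libraries the difference was -0.58 (SE 0.13, adjusted p = 0.0517). Without Tfr1-null library 1 at 10 weeks it was -0.43 (adjusted p = 0.0662), without control 3 it was -0.55 (adjusted p = 0.0711) and without control 4 it was -0.59 (adjusted p = 0.0550). The spread behind these SEs is shared by both ages. With 10 weeks fitted alone in the 12 libraries, Pdhx did not pass (-0.60, adjusted p = 0.160).

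At 3 weeks Pdhx read 8.69, 8.38 and 8.73 in Tfr1-null libraries 2 to 4, against 8.33, 8.37 and 8.53 in controls, and 8.47 in the library titled Tfr1-null 1. The groups overlapped, with a difference of 0.19 (SE 0.15, adjusted p = 0.796). The change of the genotype difference between the ages was -0.79 (SE 0.21), and its adjusted p of 0.173 did not pass, so a difference between the ages was not shown. Its 95% interval ran from -1.25 to -0.33.

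Of the other 4 subunit genes, Pdha1 read 11.78, 12.12 and 11.96 log2 units in Tfr1-null at 10 weeks, against 12.54, 12.15 and 12.27 in controls 2 to 4 and 11.96 in the library titled control 1. Its groups did not overlap in the 12 libraries, and the difference of -0.37 (SE 0.12) did not pass (adjusted p = 0.0692). It passed without Tfr1-null library 2 (-0.45, adjusted p = 0.0422) and without control 3 (-0.45, adjusted p = 0.0429). Pdhb, Dlat and Dld differed by -0.02, 0.19 and 0.31 at 10 weeks. At 3 weeks these 4 genes differed by -0.12 to 0.13.

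The kinases gave the member that passed at 3 weeks. Pdk1 read 11.16, 11.05 and 11.17 log2 units in Tfr1-null libraries 2 to 4, against 10.41, 10.28 and 10.27 in controls. The means were 11.12 ± 0.07 and 10.32 ± 0.08 (SD, n = 3 each), and the lowest Tfr1-null library lay above the highest control. Pdk1 rose by 0.80 (SE 0.17, 95% interval 0.43 to 1.18, adjusted p = 0.0386) in limma with 12 libraries.

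The library titled Tfr1-null 1 at 3 weeks read 10.14 for Pdk1, below every control, and with it the difference was 0.56 (SE 0.25, adjusted p = 1.00). The call also ended when any 1 of the other 6 libraries was left out, with differences from 0.78 to 0.85. The adjusted p was 0.156, 0.106 and 0.131 without Tfr1-null 2, 3 and 4, and 0.105, 0.155 and 0.149 without controls 1, 2 and 3. Pdk1 had 3 further probe sets, which differed by 0.83 (adjusted p = 0.161), 1.20 (adjusted p = 0.0950) and -0.13 (adjusted p = 0.992) at 3 weeks when all 34945 probe sets were tested singly, a test added after the data had been seen. In that test the representative probe set had an adjusted p of 0.0582.

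At 10 weeks Pdk1 read 11.92, 12.01 and 12.14 in Tfr1-null, against 12.03, 11.33 and 11.31 in controls 2 to 4, and 11.96 in the library titled control 1. In this representative probe set control 2 lay among the Tfr1-null libraries and the other controls below them. The difference was 0.47 (SE 0.17, adjusted p = 0.105) with 12 libraries and 0.36 (SE 0.25, adjusted p = 0.439) with 14. Without control 2 it was 0.70 (adjusted p = 0.00300), by the representative probe set only. Another probe set read 10.60, 10.85 and 10.53 in Tfr1-null, against 10.01, 10.94 and 9.89 in controls 2 to 4. A further one read 10.13, 10.34 and 10.09, against 9.40, 10.42 and 8.97. In both, control 3 lay above the Tfr1-null libraries and control 2 below them. Tested singly, they differed by 0.38 (adjusted p = 0.340) and 0.59 (adjusted p = 0.240).

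Pdk3, another kinase of the complex, read 9.62, 9.38 and 9.70 log2 units in Tfr1-null libraries 2 to 4 at 3 weeks, against 9.18, 9.19 and 9.32 in controls, and 8.99 in the library titled Tfr1-null 1. The 10-week values were 10.48, 10.59 and 10.92 in Tfr1-null, against 10.36, 10.24 and 10.30 in controls 2 to 4, and 10.48 in the library titled control 1. In the 12 libraries the groups did not overlap at either age, with differences of 0.34 (SE 0.13, adjusted p = 0.331) and 0.36 (SE 0.13, adjusted p = 0.0992) that did not pass. Pdk2, the most widely expressed kinase, differed by -0.37 (adjusted p = 0.589) and -0.49 (adjusted p = 0.143). Pdk4, the kinase known for its response to fasting in other tissues, differed by -0.07 (95% interval -0.90 to 0.76) and 0.29 (95% interval -0.54 to 1.12), so these arrays left its difference wide.

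**Figure D2:**
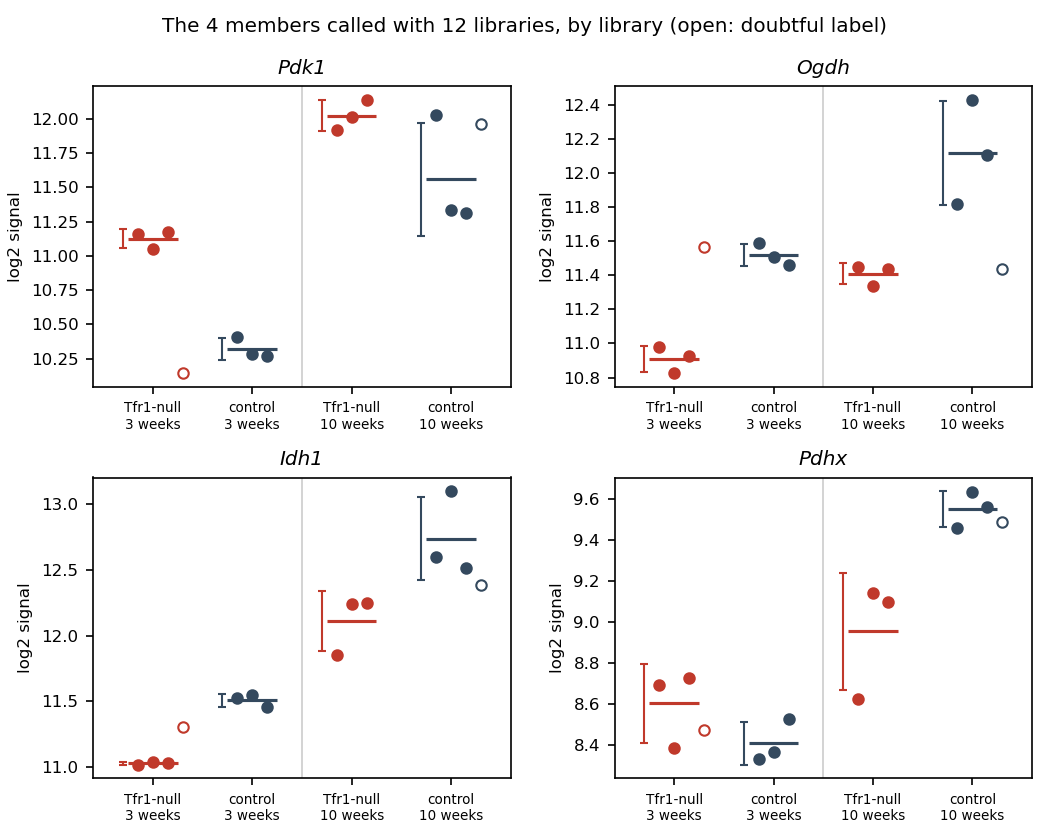
Log2 signal (vertical axis) of Pdk1, Ogdh, Idh1 and Pdhx in each library, Tfr1-null left of control at each age. Filled points are the 12 libraries, open points the 2 with a doubtful label, lines the means and bars the SD of the 12. The open point at 3 weeks lies among or below the controls for Pdk1 (10.14) and Ogdh (11.57) and between the groups for Idh1 (11.31). For Pdhx (8.47) it lies where the groups overlap. The open point at 10 weeks lies among Tfr1-null for Pdk1 (11.96) and Ogdh (11.44). It lies between the groups for Idh1 (12.38) and among the controls for Pdhx (9.49).

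The phosphatases that reactivate the complex did not pass by their representative probe sets. Pdp1 read 10.28, 10.26 and 10.24 log2 units in Tfr1-null libraries 2 to 4 at 3 weeks, against 10.42, 10.33 and 10.42 in controls, and 10.30 in the library titled Tfr1-null 1. At 10 weeks it read 10.56, 11.21 and 11.23, against 11.05, 11.29 and 11.18 in controls 2 to 4, and 11.16 in the library titled control 1. Tfr1-null library 1 stood alone below the others at 10 weeks, and the difference was -0.17 (SE 0.16, adjusted p = 0.556). The other probe set of Pdp1 fell by 0.56 (adjusted p = 0.00550) at 10 weeks when probe sets were tested singly. It passed in that test with 14 libraries too, where it fell by 0.63 (adjusted p = 0.0326). This set read 10.71, 10.81 and 10.61 in Tfr1-null at 10 weeks, against 11.18, 11.34 and 11.30 in controls 2 to 4. The library titled control 1 read 11.52 in it.

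Pdp2 read 7.94, 7.77 and 8.30 in Tfr1-null libraries 2 to 4 at 3 weeks, against 7.86, 7.90 and 7.92 in controls, and 7.92 in the library titled Tfr1-null 1. At 10 weeks it read 8.56, 9.71 and 9.03 in Tfr1-null, against 8.57, 7.89 and 8.85 in controls 2 to 4, and 8.37 in the library titled control 1. The groups overlapped at both ages, and the 10-week difference of 0.66 (SE 0.29) did not pass (adjusted p = 0.179).

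Pyruvate carboxylase, which makes oxaloacetate from pyruvate and is known in brain mainly from astrocytes, is encoded by Pcx. It read 10.29, 10.60 and 10.34 log2 units in Tfr1-null at 10 weeks, against 9.88, 9.49 and 9.98 in controls 2 to 4 and 10.22 in the library titled control 1. All Tfr1-null libraries lay above controls 2 to 4, with the doubtful library titled control 1 between the groups. The difference of 0.63 (SE 0.20, 95% interval 0.18 to 1.08) did not pass (adjusted p = 0.0741). With 14 libraries it was 0.52 (SE 0.19, adjusted p = 0.167). Astrocyte markers are given beside it. The log2 of the summed signal of all 8 ranged from 14.26 to 14.68 in Tfr1-null and from 14.02 to 14.49 in control, 1 of the 8 passed, Sox9 (1.14 higher, adjusted p = 0.0327, and 0.93 with 14 libraries, adjusted p = 0.129), and Aldh1l1 differed by 0.81 (adjusted p = 0.0820). No astrocyte marker lay under the 25th percentile of its array in all libraries of a group, and the part of astrocyte RNA in the Pcx value was not tested. At 3 weeks Pcx read 9.40, 8.90 and 9.68 in Tfr1-null libraries 2 to 4, against 9.27, 9.27 and 8.90 in controls, and 9.38 in the library titled Tfr1-null 1, and the groups overlapped.

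The malic enzymes turn malate into pyruvate, Me1 in the cytosol and Me2 and Me3 in mitochondria. Me1 read 11.12, 11.01 and 10.71 log2 units in Tfr1-null libraries 2 to 4 at 3 weeks, against 10.51, 10.51 and 10.66 in controls, and 10.42 in the library titled Tfr1-null 1. Its groups did not overlap in the 12 libraries, and the difference of 0.39 (SE 0.13) did not pass (adjusted p = 0.229). The other probe set of Me1 differed by 0.04 at 3 weeks, with overlapping groups. At 10 weeks Me1 read 11.38, 11.02 and 11.38, against 11.05, 11.08 and 11.14 in controls 2 to 4, and 11.24 in the library titled control 1. Those groups overlapped, with a difference of 0.17.

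Me2 differed by -0.17 at 3 weeks and by 0.50 (adjusted p = 0.0933) at 10 weeks, and the change between the ages was 0.68 (SE 0.25, adjusted p = 0.294). Without control 2 at 10 weeks its difference was 0.70 (adjusted p = 0.0160). The other probe sets of Me2 differed by 0.14, 0.94 and -0.18 at 10 weeks and did not pass when tested singly. Me3 differed by -0.58 at 3 weeks (adjusted p = 0.427) and by -0.35 at 10 weeks (adjusted p = 0.407).

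At the head of the cycle, Cs, which encodes citrate synthase, differed by 0.07 (95% interval -0.19 to 0.32) at 3 weeks and by 0.04 (95% interval -0.22 to 0.29) at 10 weeks. These values are from its representative probe set. The other probe sets of Cs, tested singly, differed by -0.04 (adjusted p = 0.829) and 0.32 (adjusted p = 0.163) at 10 weeks. Idh1, the cytosolic isocitrate dehydrogenase that makes NADPH, was the member of this step that passed. At 10 weeks it read 11.85, 12.24 and 12.25 log2 units in Tfr1-null, against 12.60, 13.10 and 12.51 in controls 2 to 4 and 12.38 in the library titled control 1. The means were 12.11 ± 0.23 in Tfr1-null and 12.74 ± 0.32 in controls (SD, n = 3 each), with all Tfr1-null libraries below controls 2 to 4. The doubtful library titled control 1 lay between the groups.

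With 12 libraries Idh1 fell by 0.62 at 10 weeks (SE 0.15, 95% interval -0.97 to -0.28, adjusted p = 0.0275), and it differed by -0.54 (SE 0.16, adjusted p = 0.0999) with 14. Without Tfr1-null library 1 at 10 weeks the difference was -0.49 (adjusted p = 0.0825), and without control 3 it was -0.44 (adjusted p = 0.0547). The SE uses a spread shared by both ages, and the SD at 3 weeks was smaller (0.01 in Tfr1-null and 0.05 in control). With 10 weeks fitted alone, the difference of -0.62 did not pass (adjusted p = 0.206). At 3 weeks Idh1 read 11.02, 11.04 and 11.03 in Tfr1-null libraries 2 to 4, against 11.52, 11.55 and 11.45 in controls, and 11.31 in the library titled Tfr1-null 1. Those groups did not overlap either, and the difference of -0.48 (SE 0.15) did not pass (adjusted p = 0.215). The second probe set of Idh1 passed at both ages when tested singly, at -0.45 (adjusted p = 0.0346) and -0.38 (adjusted p = 0.0228). The array's names mark both Idh1 probe sets as shared by several transcripts.

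Idh2, the mitochondrial enzyme that makes NADPH, differed by 0.24 at both ages (adjusted p = 0.395 and 0.144), with Tfr1-null above all controls in the 12 libraries. Its other probe set differed by -0.02 at 3 weeks and 0.09 at 10 weeks, with overlapping groups, so the 2 did not show the same difference. The enzyme of the cycle proper uses NAD and is built from the products of Idh3a, Idh3b and Idh3g. At 3 weeks Idh3b and Idh3g differed by 0.08 and 0.09. At 10 weeks they differed by -0.27 (adjusted p = 0.0753) and -0.22 (adjusted p = 0.168), and the changes between the ages were -0.35 and -0.31 (adjusted p = 0.288 and 0.372). Without control 4 at 10 weeks Idh3b differed by -0.33 (adjusted p = 0.0481). Its 2 other probe sets, tested singly, differed by -0.21 (adjusted p = 0.575) and fell by 0.40 (adjusted p = 0.0234) at 10 weeks.

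The 4 probe sets of Idh3a disagreed. Its representative probe set read 12.54, 12.58 and 12.62 log2 units in Tfr1-null at 10 weeks, against 12.59, 12.53 and 12.55 in controls 2 to 4, a difference of 0.03 (95% interval -0.14 to 0.19). Another read 10.82, 11.20 and 11.11, against 11.35, 12.33 and 11.78, a difference of -0.78 (adjusted p = 0.0522 over all probe sets). A further one read 10.38, 11.14 and 11.14, against 11.33, 12.24 and 11.76, a difference of -0.89 (adjusted p = 0.0522). The last differed by -0.38 (adjusted p = 0.451) at 10 weeks and by -0.69 (adjusted p = 0.462) at 3 weeks, so 3 of the 4 lay lower at 10 weeks. This last set was dim, at 5.37 to 6.35 log2 units at 10 weeks and 4.36 to 5.93 at 3 weeks. The 25th percentiles of those arrays were 5.45 to 5.54 and 4.33 to 4.40, so it carries little weight. In the sets at -0.78 and -0.89 all Tfr1-null libraries lay below all 3 controls, and in the representative one the groups overlapped. The gene is reported as uncertain.

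**Figure D3:**
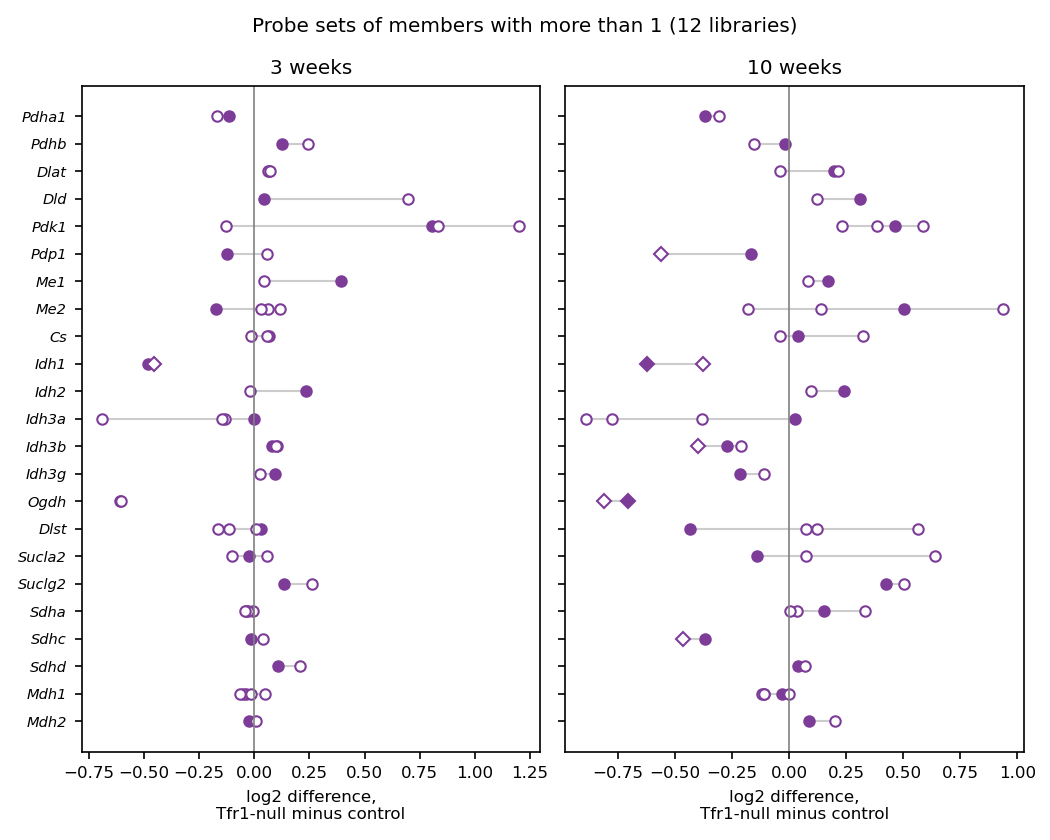
Log2 difference at 3 and 10 weeks, Tfr1-null minus control (horizontal axis), for every probe set of the 23 members that had more than 1, in the 12 libraries. Filled symbols are the probe set with the highest mean, open symbols the others, and diamonds have an adjusted p under 0.05 over all 34945 probe sets. Both probe sets of Ogdh and both of Idh1 lie left of 0 at both ages, and those of Idh3a part at 10 weeks (0.03 against -0.38, -0.78 and -0.89).

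Ogdh, which encodes the decarboxylating subunit of the oxoglutarate dehydrogenase complex, a rate-controlling enzyme of the cycle, gave the member difference with the smallest p at 10 weeks. It read 11.45, 11.34 and 11.44 log2 units in Tfr1-null, against 11.82, 12.43 and 12.10 in controls 2 to 4. The library titled control 1 read 11.44, among the Tfr1-null values. The means were 11.41 ± 0.06 in Tfr1-null and 12.12 ± 0.31 in controls (SD, n = 3 each), and the groups did not overlap. Ogdh fell by 0.71 (SE 0.14, 95% interval -1.01 to -0.41, adjusted p = 0.00872) with 12 libraries, and with 14 it differed by -0.54 (SE 0.21, adjusted p = 0.186). These SEs use a spread shared by both ages. With 10 weeks fitted alone in the 12 libraries, Ogdh did not pass (-0.71, adjusted p = 0.125).

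At 3 weeks Ogdh read 10.98, 10.83 and 10.92 in Tfr1-null libraries 2 to 4, against 11.59, 11.51 and 11.46 in controls. The library titled Tfr1-null 1 read 11.57, among the controls. The groups of the 12 libraries did not overlap, and the difference of -0.61 (SE 0.14, 95% interval -0.91 to -0.31) lay just outside the threshold (adjusted p = 0.0506). With 14 libraries it was -0.45 (SE 0.21, adjusted p = 1.00). The second probe set of Ogdh differed by -0.61 (adjusted p = 0.353) at 3 weeks and fell by 0.81 (adjusted p = 0.0427) at 10 weeks when tested singly.

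Dlst, the transferase core of the same complex, differed by 0.03 at 3 weeks. Its difference at 10 weeks was -0.44 (SE 0.18, adjusted p = 0.151), and without control 2 it was -0.63 (adjusted p = 0.0295). The other, dimmer probe sets of Dlst lay the other way at 10 weeks, at 0.56, 0.12 and 0.07, and did not pass when tested singly. The succinyl-CoA ligases, which make ATP or GTP directly in the cycle, gave no call. Sucla2, the ATP-forming subunit, differed by -0.02 and -0.14, Suclg1, the shared subunit, by 0.02 and -0.14, and Suclg2, the GTP-forming subunit, by 0.14 and 0.42. The 95% interval of Suclg2 at 10 weeks ran from -0.39 to 1.24.

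None of the 4 subunits of succinate dehydrogenase passed by its representative probe set at either age. Sdha, the flavoprotein, and Sdhb, the iron-sulfur subunit, differed by -0.04 and -0.03 at 3 weeks and by 0.15 and 0.03 at 10 weeks. The 95% interval of Sdhb at 10 weeks ran from -0.15 to 0.22. Sdhc and Sdhd encode the membrane anchors that hold the heme.

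Sdhd read 11.67, 11.71 and 11.64 log2 units in Tfr1-null libraries 2 to 4 at 3 weeks, against 11.56, 11.56 and 11.58 in controls, and 11.55 in the library titled Tfr1-null 1. The groups of the 12 libraries did not overlap, and the difference of 0.11 did not pass (adjusted p = 0.780). At 10 weeks it read 12.25, 12.31 and 12.42, against 12.31, 12.31 and 12.25 in controls 2 to 4, and 12.48 in the library titled control 1, with overlapping groups.

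Sdhc read 12.25, 12.14 and 12.12 log2 units in Tfr1-null at 10 weeks, against 12.26, 12.93 and 12.42 in controls 2 to 4, and 12.27 in the library titled control 1. The highest Tfr1-null and the lowest control lay close together, and the difference of -0.37 (SE 0.15) did not pass (adjusted p = 0.156). Its other probe set fell by 0.47 (adjusted p = 0.0169) when tested singly. At 3 weeks Sdhc read 11.72, 12.01 and 11.81 in Tfr1-null libraries 2 to 4, against 11.84, 11.84 and 11.91 in controls, and 11.85 in the library titled Tfr1-null 1, and the groups overlapped.

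The last steps of the cycle gave no call. Fh1, which encodes fumarase, read 12.03, 12.37 and 12.19 log2 units in Tfr1-null at 10 weeks, against 12.28, 12.40 and 12.35 in controls 2 to 4, and 12.04 in the library titled control 1. At 3 weeks it read 11.63, 11.45 and 11.58 in Tfr1-null libraries 2 to 4, against 11.59, 11.58 and 11.61 in controls, and 11.58 in the library titled Tfr1-null 1. The groups overlapped at both ages, with differences of -0.04 and -0.15 (adjusted p = 0.393 at 10 weeks).

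Mdh1, the cytosolic malate dehydrogenase, read 13.78, 13.76 and 13.77 log2 units in Tfr1-null libraries 2 to 4 at 3 weeks, against 13.82, 13.82 and 13.78 in controls, and 13.75 in the library titled Tfr1-null 1. The 10-week values were 14.60, 14.65 and 14.59, against 14.64, 14.64 and 14.65 in controls 2 to 4, and 14.66 in the library titled control 1. The 95% intervals of its differences ran from -0.20 to 0.12 and from -0.19 to 0.13. Mdh2, the mitochondrial enzyme, differed by -0.03 (95% interval -0.19 to 0.14) and 0.09 (95% interval -0.08 to 0.25).

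In limma 0 of the 34 members were called for a change of the genotype difference between the ages. At an unadjusted p under 0.05 there were 5 in the 12 libraries (Mpc1, Pdhx, Idh3b, Idh3g and Me2), beside 12.2% of all genes, and 3 in the 14, beside 7.48%. Of all genes, 0.286% were called in that contrast with 12 libraries and 0.0% with 14.

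Enzymes and carriers next to the cycle were read from a list of 34 genes, of which 30 were measured. The others were not analysed here. With 14 libraries 0 of 30 were called at 3 weeks (1 at an unadjusted p under 0.05, beside 4.67% of all genes). At 10 weeks 1 was called higher, beside 0.594% of all genes, and 1 lower, beside 0.616%. With 12 libraries 1 was called higher at 3 weeks, beside 0.682% of all genes, and 0 lower, beside 1.16%. At 10 weeks 5 were called higher and 3 lower, 26.7% of the 30 beside 11.1% of all genes. For the change of the genotype difference between the ages 0 neighbours were called with 12 libraries, and 5 had an unadjusted p under 0.05, beside 12.2% of all genes.

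Ldha, which encodes the lactate dehydrogenase subunit that favours lactate production from pyruvate, was called at both ages with 12 libraries. It read 13.44, 13.23 and 13.18 log2 units in Tfr1-null libraries 2 to 4 at 3 weeks, against 12.20, 12.18 and 12.30 in controls, and 12.21 in the library titled Tfr1-null 1. At 10 weeks it read 14.08, 14.12 and 14.10 in Tfr1-null, against 13.40, 12.92 and 13.09 in controls 2 to 4, and 14.17 in the library titled control 1. The groups of the 12 libraries lay clear of each other at both ages, while the 2 doubtful libraries lay with the opposite group. Ldha rose by 1.05 (SE 0.12, adjusted p = 0.00115) at 3 weeks with 12 libraries, and with 14 it differed by 0.79 (SE 0.30, adjusted p = 1.00). Its rise at 10 weeks was 0.96 (SE 0.12, adjusted p = 0.000903), and with 14 libraries the 10-week difference was 0.70 (SE 0.30, adjusted p = 0.211). Ldhb, the other subunit, differed by -0.09 and -0.22 (adjusted p = 0.858 and 0.110).

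The other calls among neighbours were at 10 weeks. Slc25a1, the mitochondrial citrate carrier, read 9.66, 10.26 and 9.76 log2 units in Tfr1-null, against 10.74, 11.16 and 11.07 in controls 2 to 4, and 10.06 in the library titled control 1. It fell by 1.10 (SE 0.18, adjusted p = 0.00421) with 12 libraries and differed by -0.86 (SE 0.24, adjusted p = 0.0842) with 14. Sdhaf3 and Sdhaf4, assembly factors of succinate dehydrogenase, fell by 0.94 (adjusted p = 0.00475) and 0.54 (adjusted p = 0.0148) with 12 libraries. With 14 libraries Sdhaf4 differed by -0.39 (adjusted p = 0.184). Sdhaf3 read 8.53, 9.23 and 9.04, against 9.74, 9.95 and 9.94 in controls 2 to 4 and 9.47 in the library titled control 1, and it was also called with 14 libraries (-0.84, adjusted p = 0.0377). With the mean of all its probe sets Sdhaf3 differed by -0.64 (adjusted p = 0.0752) in the 12 libraries and by -0.58 (adjusted p = 0.130) in the 14. The 14-library call also ended without Tfr1-null 1 or 3 (adjusted p = 0.0895 and 0.0747) or control 2, 3 or 4 (adjusted p = 0.0671, 0.0777 and 0.0634).

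Got1, the cytosolic aspartate aminotransferase of the malate-aspartate shuttle, read 14.05, 13.98 and 14.06 log2 units in Tfr1-null at 10 weeks, against 13.41, 13.45 and 13.75 in controls 2 to 4, and 13.65 in the library titled control 1. All Tfr1-null libraries lay above controls 2 to 4, and the doubtful library titled control 1 lay among those controls. Got1 rose by 0.49 (SE 0.10, adjusted p = 0.0106) with 12 libraries and by 0.46 (adjusted p = 0.0378) with 14. The call with 14 ended without Tfr1-null 1 or 3 (adjusted p = 0.0932 and 0.0887) or control 2 or 3 (adjusted p = 0.0707 and 0.0771). Oxct1, which activates ketone bodies for the cycle, rose by 0.47 (adjusted p = 0.0191) with 12 libraries, but not without Tfr1-null library 3 (0.46, adjusted p = 0.0504), and with 14 it differed by 0.36 (adjusted p = 0.156).

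Pck2, the mitochondrial enzyme that makes phosphoenolpyruvate from oxaloacetate, read 11.14, 11.33 and 10.87 log2 units in Tfr1-null at 10 weeks, against 10.56, 10.49 and 10.74 in controls 2 to 4. The library titled control 1 read 11.77, above every other library. Pck2 rose by 0.52 (adjusted p = 0.0257) with 12 libraries, and with 14 it differed by 0.22 (adjusted p = 0.659). With the mean of all its probe sets the 12-library difference was 0.39 (adjusted p = 0.138). The call ended without Tfr1-null 1 (0.51, adjusted p = 0.0654), Tfr1-null 2 (0.41, adjusted p = 0.0658), control 2 (0.50, adjusted p = 0.0544) or control 3 (0.47, adjusted p = 0.0700). Pdpr, a regulatory subunit of the pyruvate dehydrogenase phosphatase, read 9.45, 9.41 and 9.86 log2 units in Tfr1-null, against 9.06, 8.77 and 9.21 in controls 2 to 4. It rose by 0.56 (adjusted p = 0.0285), but not without Tfr1-null 3 (0.42, adjusted p = 0.0751) or control 3 (0.44, adjusted p = 0.0778). With the mean of all probe sets of Pdpr the difference was 0.22 (adjusted p = 0.453). The library titled control 1 read 11.47, above every other library, and with 14 libraries the difference was -0.05 (adjusted p = 0.969).

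**Figure D4:**
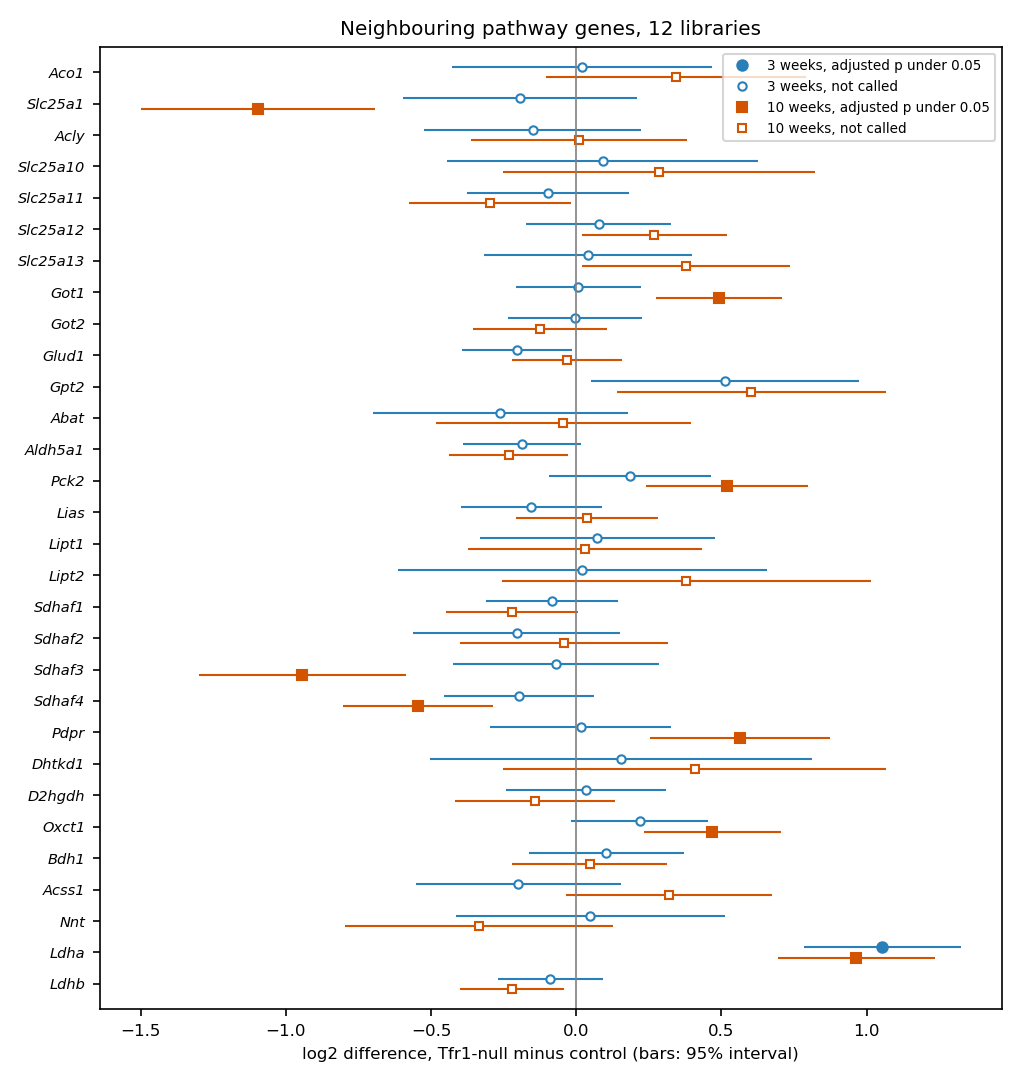
Log2 difference in signal, Tfr1-null minus control (horizontal axis), for the 30 measured neighbours of the cycle, in the 12 libraries, drawn as for the members. Ldha lies right of 0 at both ages (1.05 and 0.96), and Slc25a1 lies farthest left at 10 weeks (-1.10).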

How the data were processed

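Ribosome-bound mRNA of 14 libraries was measured on Affymetrix mouse arrays. The values are log2 signals that the authors deposited, made by RMA in Partek 6.5 per the submitters' processing notes, after amplification of 50 ng of RNA with the NuGEN Ovation V2 kit per the labels' protocols. The array medians of the ages differ, and the sources used do not say how the authors normalized across them. No raw scans were used, so background correction was not varied.

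The 45101 probe sets comprised 34958 with a single gene symbol, 932 with several and 9211 with none. After 13 control probe sets with a symbol were left out, of 64 control probe sets, 34945 remained for 18193 genes, 9010 of them with more than 1. Entrez IDs of 34741 probe sets matched the RefSeq gene table. By the array's naming, the representative probe sets of Dlat, Sdhc, Sdhd and Mdh1 may cross-hybridize, and those of Idh1, Idh3b, Sdha and Suclg2 are shared by several transcripts.

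Libraries were grouped by title and genotype. limma 3.58.1 (lmFit and eBayes) in R 4.3.3 fitted 4 group means with 1 spread per gene to 14 or 12 libraries, with residual degrees of freedom of 10 and 8. That spread was shared by both ages, so an SE at 10 weeks also drew on the 3-week libraries. Benjamini-Hochberg adjustment ran over all genes of a contrast, with a call at adjusted p under 0.05. The fit was tested on simulated data. Tables were made with pandas 2.3.3 and numpy 2.4.6, and figures with matplotlib 3.10.9, in Python 3.11.15. The number of arrays limits the precision.

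The members, the neighbouring genes, the marker lists and the motif were chosen with earlier results of these data known. Every library is given for members called in any comparison and for the member of each role with the smallest p at each age in the 12 libraries, and up to 8 called neighbours are named. Other members named with values complete their role. Alternatives were the mean of all probe sets, median centring, quantile normalization within age, a filter on dim genes, array weights, the replicate number as a block, each age alone, each library left out and every probe set tested singly. Same-numbered libraries of an age did not deviate together (correlations of -0.03 to 0.09 with 14 libraries and -0.08 to 0.04 with 12), so the numbers were not taken to pair samples.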

Additional observations from a re-analysis of the deposited data

Results flagged for a closer look

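In 7 groups a single library stood far from the other 3, measured by the gap to the nearest against the group's range. Chance flags about 1 in 20 such groups, and 128 groups of 4 were looked at, with 7 flagged. The library titled Tfr1-null 1 at 3 weeks read 10.14 log2 units for Pdk1, against 11.05 to 11.17 in the other Tfr1-null libraries. It read 11.31 for Idh1, against 11.02 to 11.04, and 6.99 for Acss1, a mitochondrial acetyl-CoA synthetase, against 6.51 to 6.53. The library titled control 1 at 10 weeks read 11.47 for Pdpr, against 8.77 to 9.21 in the other controls, and 14.07 for Ldhb, against 14.42 to 14.47. These are the 2 libraries whose labels were in doubt. The groups of 4 were Tfr1-null at 3 weeks and control at 10 weeks, and each holds 1 of them. Controls at 3 weeks and Tfr1-null at 10 weeks were not looked at, so the flags do not single out the doubtful libraries among all. Of the other libraries in these groups, control 3 at 10 weeks read 11.65 for Dlat, against 11.94 to 12.00. Tfr1-null 3 at 3 weeks read 10.45 for D2hgdh, against 10.55 to 10.57.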

How the results depend on the processing

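With 12 libraries the count of called members at 10 weeks was 3. It was 1 with array weights, 7 with the mean of all probe sets, 0 with the replicate block and 0 with that age fitted alone. Of all 18193 genes, 861 were called higher and 1154 lower in the main fit. Array weights gave 329 and 472, and the mean of all probe sets 816 and 1141. The replicate block gave 11 and 9, and that age alone 108 and 136. Leaving out 1 library gave 1 (without Tfr1-null 1) to 6 (without control 2). Of all genes, the first of these fits called 674 higher and 751 lower, and the second 823 and 1305. The mean of all probe sets called Pdha1, Pdp1, Sdhc and Idh3a in addition, all lower, and turned Idh3a to -0.51 from a representative 0.03. With 14 libraries the count at 10 weeks was 0, beside 108 of all genes higher and 112 lower. It was 1 (Pdhx) without dim genes, beside 154 and 160 of 13645. With 1 library left out it was 0 to 3. It was 3 without control 1, beside 827 and 1097 of all genes, and 1 without Tfr1-null 2, beside 157 and 139. With 12 libraries the count at 3 weeks was 1. It was 5 with array weights and 2 each with median centring, quantile normalization and no dim genes. It was 3 with the mean of all probe sets and 3 with that age alone. The replicate block, every probe set tested singly (a test chosen after seeing the data) and any library left out gave 0. Of all genes, 124 were called higher and 211 lower in the main fit. Array weights gave 626 and 734, that age alone 382 and 536, the replicate block 0 and 0, and single probe sets 95 and 171. Median centring gave 135 and 208 and quantile normalization 123 and 216. The mean of all probe sets gave 143 and 230, and the filter on dim genes 136 and 218 of 13645. Leaving 1 library out gave 66 to 79 and 136 to 146. With 14 libraries at 3 weeks it was 0, and 3 with array weights, where 241 of all genes were called higher and 348 lower. The count for the change between ages stayed 0 under all alternatives run. The cause of these moves was not tested.

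Ogdh at 3 weeks passed under 6 of 14 alternatives, among them median centring (adjusted p = 0.0404) and that age alone (adjusted p = 0.0066). Ogdh at 10 weeks passed under 12 of 14, with differences from -0.86 to -0.55, and not with the replicate block (adjusted p = 0.145) or that age alone (adjusted p = 0.125). Idh1 passed under 9 and Pdhx under 8. The adjusted p ranged from 0.00841 to 0.206 for Idh1 and from 0.0228 to 0.281 for Pdhx. Pdk1 at 3 weeks passed under 6 of 14, with an adjusted p from 0.000494 to 0.494. The replicate block, whose numbers were not taken to pair samples, ended every call of members and neighbours in the 12 libraries, and left 0 of all genes called at 3 weeks. Whether the numbers pair samples is not stated in the labels. When 10 weeks was fitted alone, Ldha was the only member or neighbour that kept its 12-library call at that age. With 14 libraries and 1 left out, Pdpr at 10 weeks ranged from -0.34 to 0.56, and 0.56 was the value without control 1.

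Of 4096 recomputed values of members and neighbours, 3989 kept direction and side of the threshold or changed sign without being called, 67 lost a call, 38 gained one and 2 reversed. Sign changes among values not called numbered 215, in 42 genes, with sizes up to 0.47.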
